A study of Homo sapiens with 15 samples.

Results

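The genes described here move cholesterol out of cells, store it as esters, or encode the liver X receptors that sense oxidised sterols. They were chosen by symbol, with earlier results of these data known. ABCA1, ABCG1, NR1H2, NR1H3, APOC1, APOE and SOAT1 make up 7 of the 60107 genes listed in every library. RNA was sequenced from MIA PaCa-2, an established human pancreatic carcinoma line, in 5 groups of 3 libraries, with every agent at 5 µM for 24 h. The Ctrl group received vehicle, and the Lys05 group received a bisaminoquinoline autophagy inhibitor that lacks a long hydrophobic tail. The BAQ12 and BAQ13 groups received compounds that join the bisaminoquinoline head to such a tail, given as self-assembled nanoparticles, and BAQ13 is longer than BAQ12 by a single methylene unit. The last group carries the label BAQ12O, whose structure is not given in the sources used here, and the design text writes this agent as 12O. All groups are the same unselected parental line, and nothing in the labels says whether the 3 libraries of a group came from separate cultures, so the p-values measure only the spread between these libraries, which may be technical.

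Liver X receptors are nuclear receptors that bind DNA as partners of the retinoid X receptors and turn on their target genes when oxysterols or certain cholesterol precursors occupy them. Their best-known targets export cholesterol: the transporters ABCA1 and ABCG1 load it onto apolipoproteins and high-density lipoprotein. The opposite arm of sterol control is run by SREBP2, which switches on cholesterol synthesis and uptake when sterols in the endoplasmic reticulum are low.

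The promoter of ABCA1 is shown because it is the member whose response element is best known and whose level differed most between BAQ13 and the other agents. RefSeq starts this minus-strand gene at position 104928155 of chromosome 9 and GENCODE 29 at 104928237, which is 82 bases further upstream. The stretch below is the RefSeq sequence of the 78 bases just before the GENCODE start, on the minus strand of GRCh38.p14, chr9:104928238-104928315, with a CACGTG box in capitals. It stops before the closest match to the liver X receptor element, which is given separately after it.
ABCA1 promoter: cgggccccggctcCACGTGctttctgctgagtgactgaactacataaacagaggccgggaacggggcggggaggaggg
A direct repeat of the kind liver X receptors bind was searched as AGGTCA, any 4 bases and AGGTCA again, on both strands of the 250 bases before the RefSeq start, and mismatches were counted over its 12 fixed letters. The ABCA1 match lies on the opposite strand, from 69 to 54 bases before the RefSeq start (chr9:104928209-104928224), with 2 mismatches, so that it lies before the gene in RefSeq and inside it in GENCODE. The CACGTG box starts 147 bases before the RefSeq start. Of the 35116 promoters in the RefSeq table, 2.03% held a match with 2 mismatches or fewer and 6.3% held CACGTG. Of the members, 6 had an entry in that table, and ABCG1 had none. The closest matches of the other members whose levels are compared below are shown for contrast, with the half-sites in capitals.
ABCA1: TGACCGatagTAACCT
APOC1: GGACCCcaccTGACCC
NR1H2: GGCTCAgagaAGCGCA
SOAT1: GTGTCAagcaAGATGT
The APOC1 stretch, at chr19:44914538-44914553, has 3 mismatches, which 16% of promoters match or better. The closest stretches in NR1H2 and SOAT1 have 4 and 5 mismatches, which 66.1% and 99.2% of promoters match or better. The APOC1 and NR1H2 stretches also lie inside the GENCODE gene spans given below, since their RefSeq starts are further downstream. These matches describe letters in a window and say nothing of binding.

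Depth was low for genes of this kind. The libraries held between 1586566 and 2500551 reads on genes, and a floor of 3 reads corresponded to a normalised count of 2.49 to 4.14. The line was checked against its markers: KRT8, KRT18 and KRT19 were well above the floor, VIM was abundant, EPCAM had 1 read in all 15 libraries and CDH1 was at the floor in 14 of 15. The macrophage markers, whose cells are known for high ABCA1, ABCG1 and APOE, summed to normalised counts of 3.3 to 5.8 in Ctrl, 3.7 to 5.2 with Lys05, 6.8 to 12.8 with BAQ12, 6.4 to 8.4 with BAQ13 and 8.6 to 17.2 with BAQ12O, with CSF1R and CD163 at 0. The epithelial markers summed to 1714.7 to 1795.0 in Ctrl and to 1361.6 to 1573.8 over the 4 treated groups. KRT8 fell with BAQ12, BAQ13 and BAQ12O (log2 differences −0.58, −0.85 and −0.60) and KRT18 with BAQ13 and BAQ12O (−0.50 and −0.43), all with a limma adjusted p under 0.05, whereas KRT19 was at 0.12 with BAQ13 (adjusted p = 0.45). COL1A2, the only fibroblast marker above the floor, fell with BAQ12 (−0.56, adjusted p = 0.011, limma) and BAQ13 (−0.54, adjusted p = 0.0043). DCN and PDGFRB were at 0, as were the endothelial and hepatocyte markers except for 1 read of VWF. The part of these marker shifts in the results was not tested. The third BAQ12 library stood apart from its group, with a mean correlation of 0.932 with the other BAQ12 libraries against 0.955 to 0.984 in all other libraries, and the comparisons with Ctrl whose count of called pathway genes changed without it are given both ways where that change was 1.5 times or more. Leaving it out, for the lists a choice made after seeing the data, raised the number of all genes called in every comparison.

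Across the groups, the pattern was an opposite movement of transporters and APOC1 in the BAQ13 group. With BAQ13, ABCA1 and ABCG1 were at 0.244 and 0.25 of their Ctrl means while APOC1 rose 1.89-fold, and the receptor NR1H2 and the esterifying enzyme SOAT1 did not pass the test. Of the members, 5 passed the filter on low counts and were tested, namely ABCA1, ABCG1, NR1H2, APOC1 and SOAT1. NR1H3 and APOE did not pass it and are given as reads. Levels below are normalised read counts of each gene, which are comparable between libraries but not between genes.

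**Figure D1:**
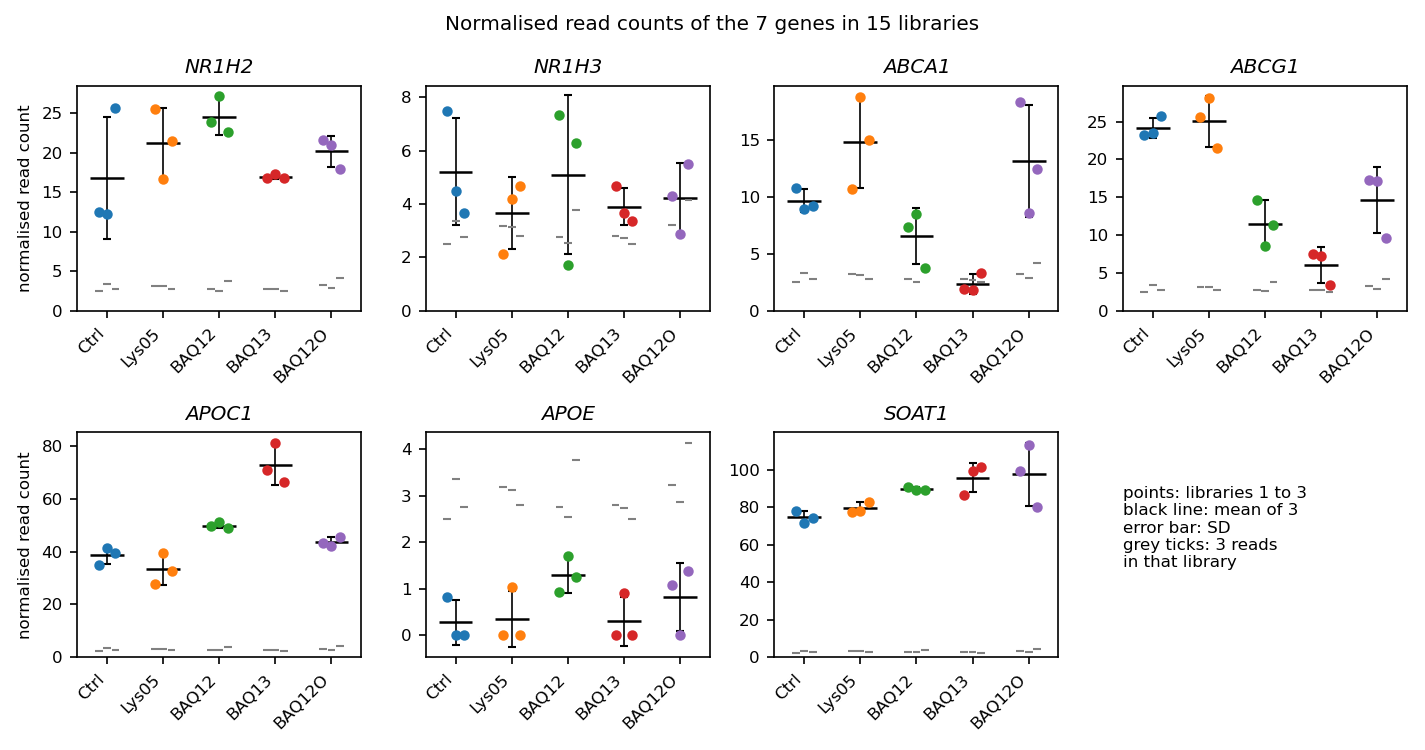
Normalised read count (y axis, linear, a separate scale for each gene) of the 7 members in the 3 libraries of each group, with the group mean (black line), its SD (error bar) and the level of 3 reads in each library (grey ticks). ABCA1 and ABCG1 are lowest with BAQ13, APOC1 is highest with BAQ13, and NR1H3 and APOE lie at or near the grey ticks throughout.

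The receptors came first. NR1H2 (ENSG00000131408, liver X receptor beta, the ubiquitous form, chr19:50329653-50382982) was read at 12.45, 12.28 and 25.70 in Ctrl, 25.55, 16.66 and 21.47 with Lys05, and 23.85, 27.20 and 22.61 with BAQ12. It was at 16.80, 17.32 and 16.76 with BAQ13 and at 21.56, 20.97 and 17.92 with BAQ12O. A single Ctrl library was high and the other two Ctrl libraries were the lowest of all 15, so every treated group overlapped Ctrl. The log2 difference between BAQ13 and Ctrl was 0.09 ± 0.26 (SE, limma, adjusted p = 0.89), with a 95% interval from −0.45 to 0.64. The largest difference from Ctrl was with BAQ12, at 0.60 (95% interval 0.05 to 1.14, adjusted p = 0.39). Genes annotated on the other strand overlap it, among them NAPSA with 15 reads in all libraries together and NAPSB with 0.

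NR1H3 (ENSG00000025434, liver X receptor alpha, the form of liver, fat and macrophages, chr11:47248300-47269032) was close to the limit of detection. Its 67 reads were spread over all 15 libraries at 2 to 9 reads each, and 3 libraries were at the floor. The group means ran from 3.65 ± 1.34 (SD, n = 3) with Lys05 to 5.20 ± 2.00 (SD, n = 3) in Ctrl, and all groups overlapped. Without the filter on low counts, limma called none of its 10 comparisons, and the unadjusted p was from 0.43 to 0.89 across them. A difference was not detectable at this depth. ACP2, on the opposite strand of the same locus, had 332 reads, and the strand setting of the counting is not given in the sources used here, so the NR1H3 reads are uncertain.

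The transporters carried the largest changes. ABCA1 (ENSG00000165029, which passes cholesterol and phospholipid to lipid-poor apolipoproteins, chr9:104781002-104928237) was at 10.79, 8.93 and 9.18 in Ctrl, 10.65, 18.75 and 14.94 with Lys05, and 18.33, 8.58 and 12.41 with BAQ12O. It was at 7.34, 8.50 and 3.77 with BAQ12 and at 1.87, 1.82 and 3.35 with BAQ13. All BAQ13 libraries lay below every library of the other groups, and Lys05 and BAQ12O overlapped Ctrl. These levels rest on few reads: the BAQ13 libraries held 2, 2 and 4, the BAQ12 libraries 8, 10 and 3, and the Ctrl libraries 13, 8 and 10. The third BAQ12 library was at the floor. It held fewer reads than the third BAQ13 library and lay above it only after scaling for depth.

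Against Ctrl, ABCA1 fell by 1.69 ± 0.36 (SE) on the log2(value + 1) scale with BAQ13, with a 95% interval from −2.45 to −0.93 (limma, Benjamini-Hochberg adjusted p = 0.0081). The ratio of means was 0.244, and 8 reads against 31 gave a ratio of 0.245 with an exact 95% interval from 0.0972 to 0.544, which covers counting error only. The other agents did not pass the test. The log2 difference was −0.55 with BAQ12 (95% interval −1.31 to 0.21, adjusted p = 0.53), 0.54 with Lys05 (−0.22 to 1.30, adjusted p = 1) and 0.35 with BAQ12O (−0.41 to 1.11, adjusted p = 0.74).

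ABCG1 (ENSG00000160179, which exports cholesterol to mature high-density lipoprotein, chr21:42199689-42297244) was at 23.25, 23.45 and 25.70 in Ctrl and at 25.55, 28.12 and 21.47 with Lys05. It was at 17.25, 17.16 and 9.65 with BAQ12O, 14.67, 8.50 and 11.30 with BAQ12, and 7.47, 7.29 and 3.35 with BAQ13. Ctrl and Lys05 overlapped and stood above all other libraries, BAQ12O overlapped BAQ12, and the BAQ13 libraries were the lowest. The means fell in the order 25.05 ± 3.35, 24.13 ± 1.36, 14.69 ± 4.36, 11.49 ± 3.09 and 6.04 ± 2.33 (SD, n = 3 each) for Lys05, Ctrl, BAQ12O, BAQ12 and BAQ13, and no neighbours in that order differed past the test.

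With BAQ13, ABCG1 fell by 1.90 ± 0.30 (SE) on the log2(value + 1) scale against Ctrl (95% interval −2.54 to −1.26, limma, adjusted p = 0.00068). The ratio of means was 0.25, from 20 reads against 77, with an exact 95% interval of the read ratio from 0.143 to 0.407. BAQ12 gave −1.04 (95% interval −1.68 to −0.39, adjusted p = 0.16) and BAQ12O gave −0.72 (−1.36 to −0.08, adjusted p = 0.31), so that both intervals lay below 0 but neither passed the adjustment over 10495 genes. Lys05 gave 0.04 (−0.60 to 0.69, adjusted p = 1). The transporters followed each other over the 15 libraries, with a Pearson r of 0.72 on the log2 scale, and groups and depth are shared among those points.

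The apolipoproteins differed in whether they could be measured at all. APOC1 (ENSG00000130208, a small apolipoprotein of triglyceride-rich and high-density lipoproteins, encoded next to APOE, chr19:44914247-44919349) was at 34.87, 41.31 and 39.47 in Ctrl and at 27.68, 39.57 and 32.67 with Lys05. It was at 43.12, 41.95 and 45.50 with BAQ12O, 49.52, 51.00 and 48.99 with BAQ12, and 70.92, 81.11 and 66.21 with BAQ13. The BAQ13 libraries were the highest, BAQ12 came next without overlap, and Lys05 overlapped Ctrl. The rise with BAQ13 was 0.90 ± 0.16 (SE) on the log2 scale (95% interval 0.57 to 1.23, limma, adjusted p = 0.0015), from 38.55 ± 3.32 to 72.75 ± 7.62 (SD, n = 3). BAQ12 gave 0.37 (95% interval 0.04 to 0.69, adjusted p = 0.38), BAQ12O 0.17 (−0.15 to 0.50, adjusted p = 0.69) and Lys05 −0.22 (−0.54 to 0.11, adjusted p = 1).

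APOE (ENSG00000130203, the apolipoprotein that macrophages and liver secrete, chr19:44905754-44909393) had 9 reads in all, with 0 to 2 in each library, and every library was at the floor. No fold change is given for it, and without the filter limma called none of its comparisons. APOC1 was therefore measured well above the floor in libraries in which the neighbouring APOE was not.

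SOAT1 (ENSG00000057252, which esterifies cholesterol in the endoplasmic reticulum for storage, chr1:179293714-179358680) was at 78.04, 71.46 and 74.35 in Ctrl and at 77.73, 78.11 and 83.08 with Lys05. It was at 90.80, 89.25 and 89.18 with BAQ12, 86.78, 99.34 and 101.41 with BAQ13, and 99.17, 113.45 and 79.96 with BAQ12O. All libraries of the 3 latter groups lay above every Ctrl library, by a small margin. The log2 differences from Ctrl were 0.26 (95% interval −0.01 to 0.54, adjusted p = 0.44), 0.35 (0.08 to 0.63, adjusted p = 0.12) and 0.37 (0.10 to 0.64, adjusted p = 0.21) for BAQ12, BAQ13 and BAQ12O. None passed the test in limma, and for Lys05 the difference was 0.09 (−0.18 to 0.37, adjusted p = 1).

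Among the comparisons with Ctrl, members were called with BAQ13 alone. Limma called 1 member higher and 2 lower, where 3.58% and 2.19% of all 10495 genes tested were called higher and lower, and 5.77% in all. Since the members were chosen with earlier results of these data known, setting them beside these shares is a description and not a test. No member was called with Lys05 (background 0.238%), BAQ12 (0.981%) or BAQ12O (1.48%), and edgeR and DESeq2 also called none in these comparisons. At an unadjusted p under 0.05, limma listed 0 members with Lys05, 3 with BAQ12 (ABCG1, NR1H2 and APOC1) and 2 with BAQ12O (ABCG1 and SOAT1). The share of all genes at that unadjusted threshold was not computed. These counts, and those of pairs and lists below, therefore have no background. Of the 5 members tested, libraries did not overlap those of Ctrl for 4 with BAQ12, 4 with BAQ13, 3 with BAQ12O and 0 with Lys05. The share of all genes tested without such overlap was 15.4%, 28.9%, 25.8% and 15.6%. Without the third BAQ12 library, 51, 137, 1436 and 526 of 10657 genes were called with Lys05, BAQ12, BAQ13 and BAQ12O, in place of 25, 103, 606 and 155 of 10495, and the members called in these comparisons were as many as before. The 4 comparisons share the Ctrl libraries. In bulk RNA, fewer cells that express a gene and less RNA of it in each cell cannot be told apart.

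**Figure D2:**
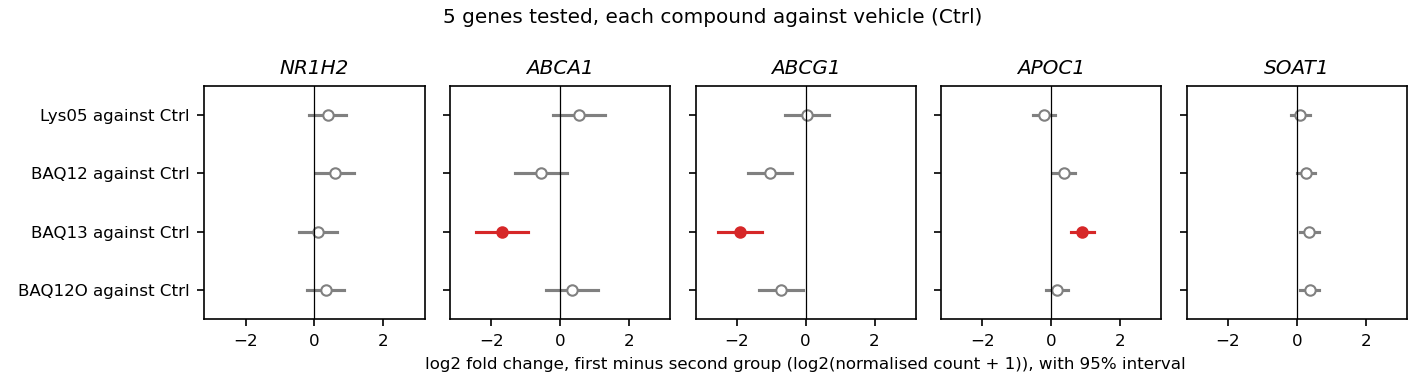
Log2 difference from Ctrl on the log2(normalised count + 1) scale (x axis) of the 5 members tested, for each agent, with the 95% interval of the limma fit; filled points have an adjusted p under 0.05. The filled points are ABCA1 at −1.69, ABCG1 at −1.90 and APOC1 at 0.90, all with BAQ13.

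The agents were then compared with each other at the same dose and time, in 6 pairs, with p-values adjusted over all genes and pairs together. BAQ13 differed from Lys05 in the same 3 members. ABCA1 was lower by a log2 difference of −2.23 ± 0.36 (SE, limma, adjusted p = 0.0033) and ABCG1 by −1.94 ± 0.30 (SE, adjusted p = 0.0024). APOC1 was higher by 1.11 ± 0.16 (SE, adjusted p = 0.00074). Here 1.31% of all genes were called higher, 0.4% lower and 1.72% in all, against 1 member higher and 2 lower. Without the third BAQ12 library, 535 genes in place of 180 were called in this pair. For NR1H2 and SOAT1 the difference was −0.29 (95% interval −0.83 to 0.26) and 0.26 (−0.01 to 0.53).

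BAQ13 and BAQ12, which differ by a methylene unit, were not told apart in any member by the adjusted test. The differences of BAQ13 from BAQ12 were −1.14 for ABCA1 (95% interval −1.90 to −0.38, limma, adjusted p = 0.24), −0.86 for ABCG1 (−1.50 to −0.22, adjusted p = 0.33) and 0.53 for APOC1 (0.20 to 0.86, adjusted p = 0.18). Each of these intervals excludes 0 before adjustment, all 3 had an unadjusted p under 0.05, and each value lay between 0 and the difference of BAQ13 from Ctrl. For NR1H2 the difference was −0.50 (−1.05 to 0.04) and for SOAT1 0.09 (−0.18 to 0.36). In this pair 0.61% of all genes were called, and edgeR and DESeq2 called no member.

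BAQ12O differed from BAQ13 in 1 member higher and 1 lower, where 0.353% of all genes were called higher, 0.677% lower and 1.03% in all. ABCA1 was higher with BAQ12O by 2.05 ± 0.36 (SE, limma, adjusted p = 0.007), and this call was lost without the first BAQ12O library (1.79, adjusted p = 0.059). APOC1 was lower with BAQ12O, at −0.72 ± 0.16 (SE, adjusted p = 0.036). That call sat near the threshold: DESeq2 gave an adjusted p of 0.074, and of 15 fits with a library removed it held in 5, with adjusted p from 0.013 to 0.2. ABCG1 was higher with BAQ12O by 1.18 (95% interval 0.53 to 1.82, adjusted p = 0.11), and it passed the test when the third BAQ12 library was left out (1.18, adjusted p = 0.036). For SOAT1 the difference was 0.01 (−0.26 to 0.29) and for NR1H2 0.23 (−0.31 to 0.78).

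No member was called in the other 3 pairs, in which 0.248% (BAQ12 against Lys05), 0.324% (BAQ12O against Lys05) and 0.286% (BAQ12O against BAQ12) of all genes were called, and edgeR and DESeq2 called none there either. At an unadjusted p under 0.05, limma listed 3, 3 and 1 members, again without a share of all genes beside them. BAQ12 lay below Lys05 in ABCA1 by −1.09 (95% interval −1.85 to −0.33, adjusted p = 0.27) and in ABCG1 by −1.08 (−1.72 to −0.44, adjusted p = 0.16), and above it in APOC1 by 0.58 (0.25 to 0.91, adjusted p = 0.13). BAQ12O lay below Lys05 in ABCG1 by −0.77 (−1.41 to −0.12, adjusted p = 0.41), whereas its ABCA1 difference was −0.19 (−0.95 to 0.57). BAQ12O lay above BAQ12 in ABCA1 by 0.91 (0.15 to 1.66, adjusted p = 0.41).

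**Figure D3:**
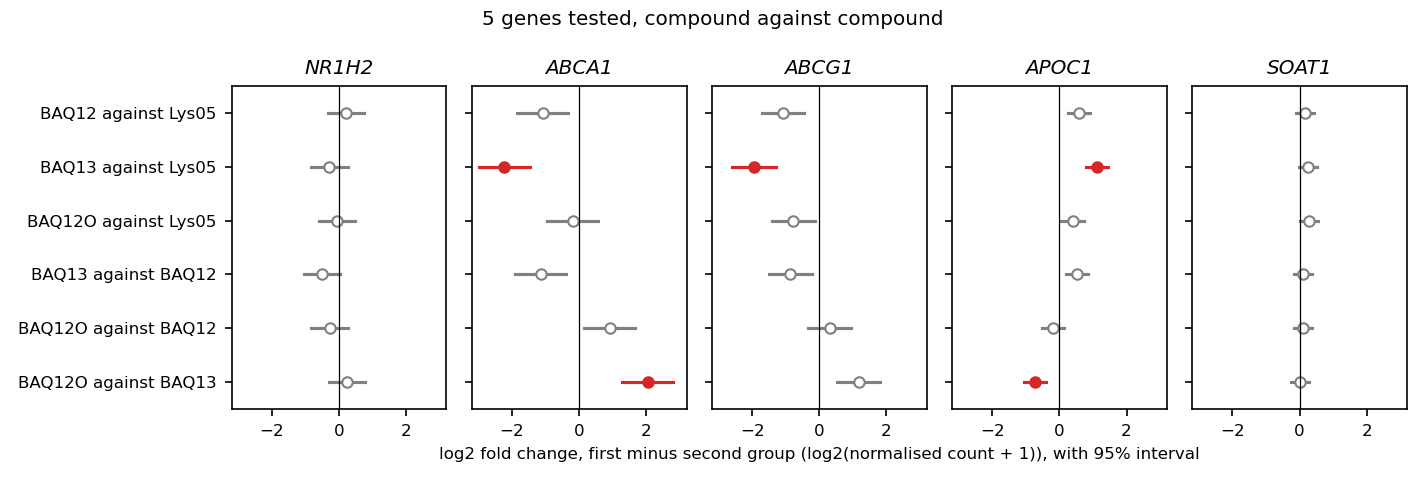
Log2 difference between agents (x axis, first minus second agent named, log2(normalised count + 1)) for the 5 members tested, with 95% intervals of the limma fit; filled red points have a p under 0.05 adjusted over all genes and 6 pairs. The filled points are the 3 members ABCA1, ABCG1 and APOC1 for BAQ13 against Lys05, and ABCA1 and APOC1 for BAQ12O against BAQ13.

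Other target genes of the liver X receptors did not move one way. Of 20 listed, 9 were tested, and 11 were at the floor in every library, among them ABCG5, ABCG8, LPL, CETP and CYP7A1. With BAQ13, limma called 3 higher and 2 lower, where 3.58% and 2.19% of all genes were. The median log2 difference of the 9 was 0.01 against 0.00 for all genes. As with the members, the lists were chosen with earlier results of these data known. Lower were MYLIP, the ubiquitin ligase that degrades the LDL receptor, at 30.2 against 56.3 in Ctrl (−0.88, adjusted p = 0.0046), and SREBF1, the fatty acid regulator, at 33.0 against 55.4 (−0.72, adjusted p = 0.019). Higher were FASN (1.77, adjusted p = 4e-10), SCD (1.05, adjusted p = 1.8e-08) and PNPLA3 (1.02, adjusted p = 0.0021), which encode fatty acid synthase, stearoyl-CoA desaturase and a lipid droplet acyltransferase or lipase and are also known targets of the SREBP factors.

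LPCAT3, a phospholipid-remodelling enzyme, was at 40.4 with BAQ13 against 79.8 in Ctrl (−0.99, adjusted p = 0.061). It did not pass the test in limma, and edgeR, DESeq2 and the limma fit without the third BAQ12 library each called 3 genes of this list lower. Without that library, 2 genes in place of 1 were called higher with Lys05. With the other agents, limma called FASN and SCD higher with BAQ12 and BAQ12O and SCD with Lys05, and none lower. MYLIP and SREBF1 stood at −0.35 and −0.45 with BAQ12 (adjusted p = 0.44 and 0.34) and at −0.11 and 0.13 with BAQ12O (adjusted p = 0.83 and 0.81).

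Of the receptors' partners and coregulators, 12 of 13 were tested, and their median log2 difference with BAQ13 was 0.12. RXRA, the retinoid X receptor that pairs with both liver X receptors, rose with BAQ13 from 119.46 ± 10.05 to 166.12 ± 14.43 (SD, n = 3, log2 difference 0.47, limma adjusted p = 0.015). Limma and edgeR called 2 genes of this list higher with BAQ13 and DESeq2 called 1, and 10 did not pass in limma. The limma share of all genes called higher was 3.58%. RXRG was at 0, and with the other 3 agents none was called by limma, edgeR or DESeq2. At an unadjusted p under 0.05 the numbers with Lys05, BAQ12 and BAQ12O were 1, 2 and 2, without a share of all genes beside them.

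Every tested gene that forms or removes sterol ligands rose with BAQ13. Enzymes that make side-chain oxysterols were barely read, with CH25H at 0, CYP27A1 at 2 reads and CYP46A1 at 25 reads in all libraries together, and the oxysterol hydroxylases CYP7B1 and CYP39A1, which remove them, were at 0. Of 12 genes, 5 were tested, and all 5 were called higher with BAQ13, with a median log2 difference of 1.68. Of all genes tested, 3.58% were called higher with BAQ13, and 0.981% and 1.48% in either direction with BAQ12 and BAQ12O. Among them were EBP (1.73, from 191 to 638, adjusted p = 2.8e-09), DHCR7 (1.68, adjusted p = 6.8e-05) and SC5D (1.63, adjusted p = 0.00043), which act late in cholesterol synthesis, and HSD3B7 (0.52, adjusted p = 0.011), a bile acid enzyme. With BAQ12, limma called EBP and SC5D, DESeq2 called 1 gene, and limma called 3 without the third BAQ12 library. With BAQ12O, EBP alone was called. At an unadjusted p under 0.05, limma listed 4 of the 5 as higher with BAQ12 and all 5 with BAQ12O, without a share of all genes beside them. With Lys05 none of these genes was called by limma, edgeR or DESeq2, and none had an unadjusted p under 0.05.

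No other sterol carrier or transporter passed the test. Of 12 listed, 7 were tested, among them SCARB1, the high-density lipoprotein receptor, ABCA7, PLTP and OSBP. None was called with any agent by limma, edgeR or DESeq2, and 1 gene had an unadjusted p under 0.05 with each agent. SCARB1 was at 52.5 with BAQ13 against 42.3 in Ctrl (0.31, 95% interval −0.11 to 0.73). Among the genes of cholesteryl ester turnover, 4 of 7 were tested, and NCEH1, a hydrolase that frees cholesterol from esters, fell with BAQ13 from 454.29 ± 37.54 to 285.16 ± 10.07 (SD, n = 3, −0.67, adjusted p = 4.8e-05) and with BAQ12 (−0.37, adjusted p = 0.039). The lysosomal lipase LIPA and the droplet coat genes PLIN2 and PLIN3 did not pass, with LIPA at 0.06 and PLIN2 at 0.34 with BAQ13 (adjusted p = 0.87 and 0.13). Without the third BAQ12 library, 1 gene of this list was also called higher with BAQ13. SOAT2, the second esterifying enzyme, had 2 reads in all.

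**Figure D4:**
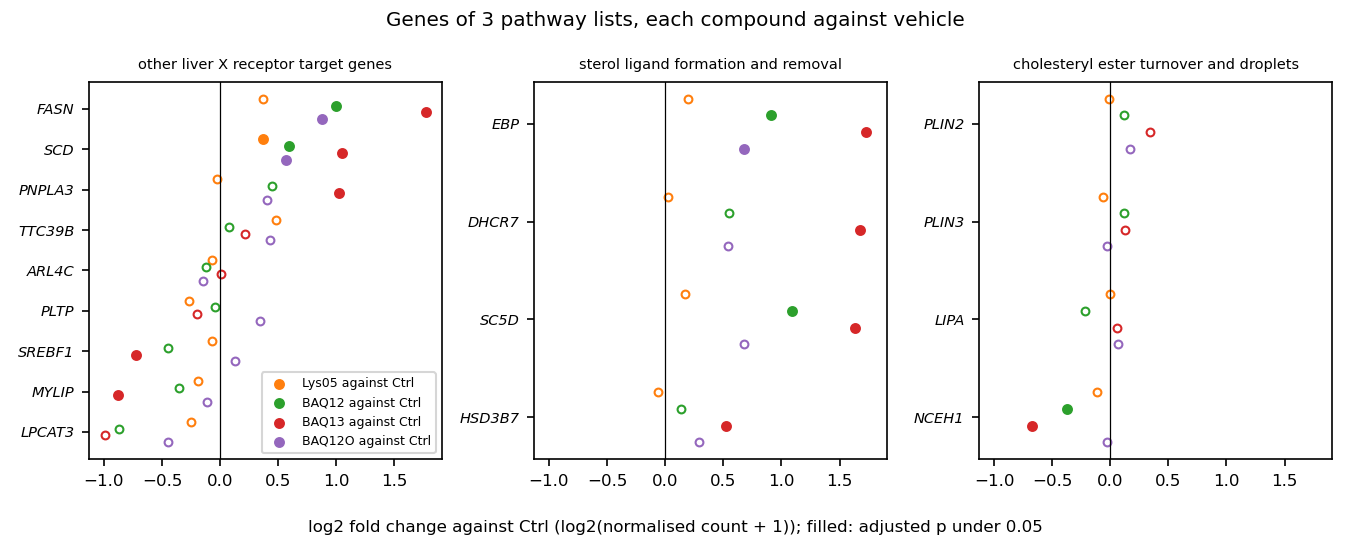
Log2 difference from Ctrl (x axis, log2(normalised count + 1)) of genes tested in 3 lists, coloured by agent; filled points have a limma adjusted p under 0.05. In the first panel FASN, SCD and PNPLA3 lie to the right and SREBF1 and MYLIP to the left with BAQ13, and in the second EBP, DHCR7, SC5D and HSD3B7 lie to the right with BAQ13.

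Genes that sterols repress through SREBP2 give the other arm for comparison. Of 14 listed, 12 were tested, and 8, 11 and 5 were called higher with BAQ12, BAQ13 and BAQ12O and none lower. The share of all genes called in either direction in these comparisons was 0.981%, 5.77% and 1.48%. Among those with the smallest adjusted p, HMGCS1 went from 57.3 to 611 with BAQ13 (3.39, adjusted p = 1.9e-08) and FDFT1 from 217 to 856 (1.98, adjusted p = 5.8e-09). No gene of this list was called with Lys05 by limma, edgeR or DESeq2, and 2 had an unadjusted p under 0.05. With the third BAQ12 library left out, 1, 10, 12 and 8 were called with Lys05, BAQ12, BAQ13 and BAQ12O. Over the 15 libraries, APOC1 had a Pearson r of −0.82 with ABCA1 and −0.84 with ABCG1. Its r was 0.92 with the cholesterol synthesis genes FDFT1 and EBP, which were picked for being among the 3 genes most correlated with it. These correlations are descriptions over libraries that share groups and depth.

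The genes most like each member were found by the same measure, the Pearson r of log2(value + 1) over the 15 libraries among all genes tested. For ABCA1 they were IVNS1ABP (0.89), CTSC (0.89) and PIGL (0.88), and for ABCG1 COL5A2 (0.90), STK17A (0.88) and NT5E (0.87). For APOC1 they were MRPS6 (0.93), FDFT1 (0.92) and EBP (0.92). SOAT1 was most like UBXN7 (0.89), PDPR (0.86) and RAB17 (0.85), and NR1H2 most like FPGS (0.81), PRPF8 (0.77) and RNF169 (0.76).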

How the data were processed

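RNA from 15 libraries was sequenced in 5 groups of 3. Per the labels, libraries were made with a 3′-end mRNA kit, whereas the study's methods name a stranded paired-end kit. The submitters' processing notes list STAR, HTSeq and DESeq2 with GRCh38 (hg38), without versions. The authors deposited a normalised signal for each gene, that is, gene reads scaled by 1 size factor per library. All values were whole multiples of a single read (within 0.01 reads), so reads were recovered. No sample's group was unassigned.

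The test was limma 3.58.1 (R 4.3.3) with a variance trend on log2(value + 1) over all 15 libraries, after filterByExpr of edgeR 4.0.16 on the recovered reads (minimum count 10), which kept 10495 genes. Comparisons with Ctrl were adjusted by Benjamini-Hochberg over genes, and the 6 pairs of agents over genes and pairs, with a threshold of 0.05. Fold changes on this scale understate those of low genes. Scripts were tested on simulated data. The alternatives were edgeR, DESeq2 1.42.0, pseudocounts of 0.1 and 5, TMM and upper-quartile factors, no filter, at least 10 reads in every library, only the 6 libraries compared, a replicate block, and each library left out. Members and lists were chosen with earlier results of these data known. Named genes were the members, at most 6 called genes of each list, and the 3 genes most correlated with each member; list genes outside this rule were named after their values were seen. Coordinates were taken from GENCODE 29, which held 56531 of the 60107 identifiers, and promoters from RefSeq. Some genes of the lists and of the overlaps are counted but not reported here by name.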

Additional observations from a re-analysis of the deposited data

How the results depend on the processing

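The calls of ABCA1, ABCG1 and APOC1 for BAQ13 against Ctrl and against Lys05 held in all 15 fits that left out a library. They also held under every other alternative, except that ABCA1 and ABCG1 could not be tested where at least 10 reads were required in every library. Under that filter 1 member was called for BAQ13 against Ctrl, BAQ13 against Lys05 and BAQ12O against BAQ13. For BAQ12O against BAQ13, 1 member was also called with DESeq2, without the filter and with the replicate block, and 0 (without BAQ12O replicate 1) to 3 (without BAQ12 replicate 3) when libraries were left out. Same-numbered libraries did not steadily deviate in the same direction: all r exceeded 0.1 in 0 of 10 pairs of groups. The r ran from −0.49 to 0.20. It was −0.49 between BAQ12 and BAQ13 in replicates 1 and 3, which deviated in opposite directions, and the cause was not tested. The block changed no other call of a member. For ABCA1 with BAQ13 against Ctrl the log2 difference ran from −2.04 to −1 over the other settings. Of 1230 alternative values of the members, 1204 kept direction and call, 14 lost a call and 1 gained it.

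Differences that changed sign were all uncalled and near 0, and the cause was not tested. They were ABCG1 for Lys05 against Ctrl (−0.04 without Lys05 replicate 2, left-out values up to 0.15), NR1H2 for BAQ13 against Ctrl (0 with edgeR, −0.07 and −0.08 without Ctrl replicates 1 and 2, up to 0.43), ABCA1 for BAQ12O against Lys05 (0.06 without BAQ12O replicate 2, down to −0.44), NR1H2 for that pair (0.08 without Lys05 replicate 1, 0.02 without BAQ12O replicate 3, down to −0.21), and SOAT1 for BAQ12O against BAQ12 (−0.01 without BAQ12O replicate 2, up to 0.24) and against BAQ13 (−0.06, −0.01 and −0.10 without BAQ13 replicate 1 and BAQ12O replicates 1 and 2, up to 0.15).

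Over all genes, the number called for BAQ13 against Ctrl was 606 in the reported fit, 947 with only the 6 libraries compared and 1436 without BAQ12 replicate 3. Without that library, the 6 pairs of agents gave 57 to 535 calls. Depth limits APOE most, with 0 to 2 reads a library, then NR1H3, ABCA1 and ABCG1, whose lowest libraries held 2, 2 and 4 reads.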
